A study of Mus musculus with 47 samples.

Results

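Autosomal expression was compared between 9 mouse iPSCs that retained only the Mus X chromosome (Mus-only cells, X-Mus O-Cast) and 23 iPSCs that retained both X chromosomes (two-X cells), out of 47 single cells on 1 plate. The class of each cell was read from the column names of the deposited allelic counts, and per the study's text X loss was judged from X-linked genes, so autosomal values took no part in the choice. Of the 13947 genes in the counts, 13515 were autosomal. The 3966 with a mean of at least 5 counts over the 32 cells were compared, 302 of them on chromosome 1 and 3664 elsewhere. All cells are female induced pluripotent stem cells (iPSCs) made from embryonic fibroblasts of a cross between a Mus mother, whose X carried an eGFP transgene, and a Cast father. The fibroblasts were reprogrammed with lentiviral OSKM, the factors Oct4 (Pou5f1), Sox2, Klf4 and Myc, and the labels give serum, LIF and ascorbic acid for all cells. The study's methods describe iPSC controls passaged without ascorbic acid, and whether that holds for these cells is not given in the sources used here. Mus-only cells lack the X of the Cast father. A further 15 cells that kept only the Cast X (Cast-only cells) are given side by side, since they would be set against the same two-X cells. The labels call every cell iPSCs and name no separate culture or clone. Each class was therefore treated as 1 sample, and levels and folds are given without p-values. Whether the cells of a class descend from 1 clone was not tested, and a difference between clones and a difference between X chromosome classes cannot be told apart here.

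Mouse pluripotent stem cells with 2 active X chromosomes are known to differ from cells with a single X in autosomal genes. A double dose of X-linked genes dampens MAPK and other signalling, keeps naive pluripotency factors high and lowers the DNA methylation machinery and global DNA methylation, while cells with a single X behave more like male cells. Some genes of the germline are kept silent by promoter methylation in most cells and can be transcribed where methylation is low. The comparison below follows these groups first and then other functions.

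A scaled count is the sum of the Cast and Mus counts of a gene divided by the total of the cell and multiplied by the median total of the 32 cells. Totals were 71682 to 212232 (median 179357) in Mus-only cells and 130816 to 198307 (median 164722) in two-X cells. Plate rows A to D held 6 Mus-only and 9 two-X cells, and rows E to H 3 and 14. The lowest total belonged to the Mus-only cell of well E04, which had a read for 2851 autosomal genes, against a median of 4719 over the Mus-only and 4849 over the two-X cells. Counts were taken at SNP positions, without molecular identifiers. Of the non-zero allelic values 4.83% were 1 and 13.9% were 2, so 1 read can add more than 1 count and every counting interval below, which covers counting error only, is too narrow. Mitochondrial genes held 9.47% to 23.1% of counts in Mus-only cells (median 18.4%) and 13.9% to 26.7% in two-X cells (median 22.9%). Division by the autosomal total without chromosome 1 in place of the whole total moved the median log2 fold of the genes off chromosome 1 from 0.06 to -0.05. Pluripotency markers were read in both classes, with 504 to 1400 scaled counts summed over 7 markers in Mus-only cells and 743 to 1861 in two-X cells. Of 6 fibroblast markers in the counts 5 were at 0 in all Mus-only cells, among them Col1a1, Col1a2 and Dcn.

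Chromosome 1 held a smaller share of autosomal counts in the Mus-only class. Its share was 5.29% to 9.43% (median 7.47%) in Mus-only cells and 5.92% to 10.1% (median 8.80%) in two-X cells, and 8.29% in the median Cast-only cell. The alleles of chromosome 1 were unequal in most cells, with 29.1% to 34.9% of counts from Mus in 7 Mus-only cells and 27.6% to 34.2% in 22 two-X cells. In the other 3 cells the alleles were close to even, at 46.8% and 47.7% in the Mus-only cells B01 and C01 and at 47.6% in the two-X cell G04. These were also the cells with the lowest chromosome 1 shares of their classes, 5.29% in B01, 5.97% in C01 and 5.92% in G04. Without them the medians were 7.77% and 8.87%, with ranges of 7.12% to 9.43% and 8.47% to 10.1%. The median log2 fold was -0.15 over the 302 chromosome 1 genes and 0.06 over the 3664 other genes. Without the 3 cells these medians were -0.12 and -0.03, so they lay closer together. Chromosome 1 genes were therefore kept apart from all counts below.

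Of the other autosomes, chromosome 7 was higher in Mus-only cells, with 9.18% to 12.9% (median 10.7%) against 8.83% to 10.2% (median 9.48%), and 7 of 9 Mus-only cells lay above every two-X cell. Chromosome 15 held a median of 4.08% against 3.81%, with 6 Mus-only cells above the two-X range, and chromosome 19 held 3.66% against 3.35%, with 4 above it. Chromosome 18 was lower, at a median of 2.21% against 2.52%, and 1 Mus-only cell lay below the two-X range. On each of chromosomes 2, 13 and 16, 3 Mus-only cells lay below it, with medians of 5.42% against 5.57%, 3.21% against 3.19% and 2.49% against 2.67%. The chromosome 7 share was highest in E04, at 12.9%, and was 10.1% in the median Cast-only cell. The Mus-only cell C01 had 7.86% of its autosomal counts on chromosome 8, where 51.5% of its counts were from Mus, against 4.85% to 6.11% and 33.2% to 42.2% in two-X cells. The genes of chromosome 7 had a median log2 fold of 0.17 and those of chromosome 8 of 0.16, against 0.06 over all genes off chromosome 1.

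**Figure D1:**
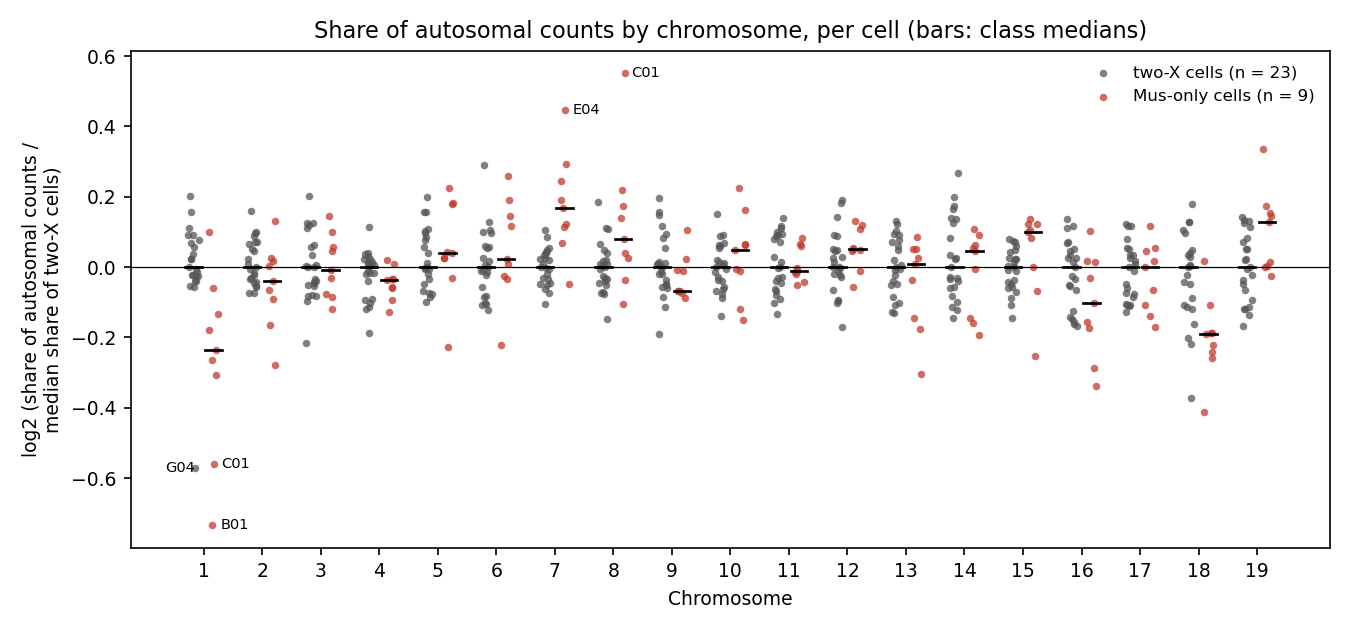
Share of autosomal counts per chromosome (x axis) in each of 23 two-X cells (grey) and 9 Mus-only cells (red), as log2 of the share over the two-X median (y axis), with bars at class medians. The Mus-only cells B01 and C01 and the two-X cell G04 lie low on chromosome 1, C01 lies high on chromosome 8, and 7 of 9 Mus-only cells lie above all two-X cells on chromosome 7.

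Among the 3664 genes off chromosome 1, 331 (9.03%) were at least 2-fold higher in Mus-only cells and 328 (8.95%) at least 2-fold lower. At 1.5-fold the numbers were 715 (19.5%) and 642 (17.5%). Without E04 they were 359 and 307 at 2-fold. On chromosome 1, 19 of 302 genes (6.29%) were at least 2-fold higher and 41 (13.6%) at least 2-fold lower, with 44 (14.6%) and 72 (23.8%) at 1.5-fold. The share past 2-fold followed the level of the gene. It was 16.1% higher and 14.5% lower at a mean of 5 to 10 counts, and 1.82% and 3.03% at a mean of 100 counts or more. A fold carried by few cells was common on the high side. Of the 331 genes that were 2-fold higher, 202 were read in under 50% of the Mus-only cells or had a cell with over 33.3% of the class sum, while this held in two-X cells for 48 of the 328 lower genes. The 2 classes differ in number of cells, and 1 cell weighs more among 9 than among 23. The limit of 5 counts was set on the mean of all 32 cells, to which the 23 two-X cells add most, so low genes pass it more easily when they are high in two-X cells. A gene that is low in two-X cells can also pass it through a high level in Mus-only cells.

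Both alleles could be read separately as a second look at the same cells. For 3135 genes off chromosome 1 whose Cast and Mus counts each averaged 2 or more, 250 were at least 2-fold higher, and in 218 of these (87.2%) the Cast and the Mus counts were both higher. Of 254 genes at least 2-fold lower, both alleles were lower in 245 (96.5%). Over all 3135 genes both alleles were higher in 32.2% and lower in 28.8%. The alleles come from the same libraries and the fold is a sum over them, so this is a description and not a replicate.

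**Figure D2:**
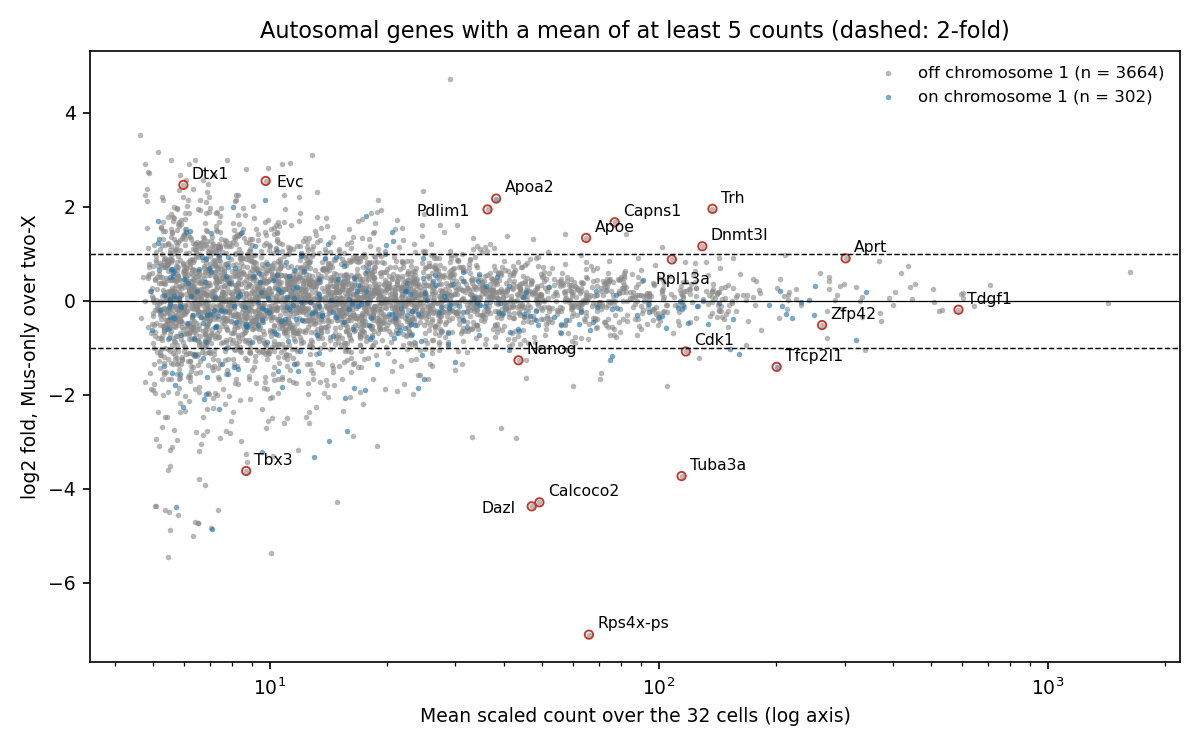
Log2 fold of Mus-only over two-X cells (y axis) against the mean scaled count over 32 cells (x axis, log), for 3664 genes off chromosome 1 (grey) and 302 on it (blue). The spread narrows with the level, and Rps4x-ps, Dazl, Calcoco2 and Tuba3a stand below the other genes of their level.

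Among genes read in at least 50% of the Mus-only cells and with no cell over 33.3% of the class sum, the 12 highest folds off chromosome 1 ran from 1.88 to 2.55 on the log2 scale. Without these conditions 19 tested genes had a larger fold than Evc. Evc had 0 to 69.4 (median 14.7) scaled counts in Mus-only cells and 0 to 46.3 (median 0) in two-X cells, a log2 fold of 2.55. Evc is a ciliary protein needed for Hedgehog signalling. Scaled counts of Dtx1 ran from 0 to 31.3 (median 7.399) in Mus-only cells and from 0 to 19.7 (median 0) in two-X cells, a log2 fold of 2.47, and Dtx1 is an E3 ubiquitin ligase of the Notch pathway. For Esrp1 the Mus-only cells held 4.31 to 83.3 (median 15.9) scaled counts and the two-X cells 0 to 36.5 (median 0). Esrp1, an epithelial splicing regulator, was read in all 9 Mus-only but 8 of 23 two-X cells (log2 fold 2.32), while in Cast-only cells its log2 fold was -0.77. The other genes of this group had log2 folds of 1.88 to 2.31. They were Smagp, the secreted glycoprotein Fstl1, the calcineurin inhibitor Rcan1, the hormone precursor Trh, the ribosome rescue factor Pelo, the LIM protein Pdlim1, the imprinted gene Peg3, the glycolytic enzyme Aldoc and the RNA demethylase Fto. In Mus-only cells Trh measured 0 to 840.5 (median 276) scaled counts, against 0 to 365 (median 40.3) in two-X cells, which makes it the gene of the group with the most counts (log2 fold 1.96). Pdlim1 had 0 to 199 (median 54.4) scaled counts in Mus-only cells and 0 to 84.9 (median 18.9) in two-X cells, with 86.5% of the 207 pairs of a Mus-only and a two-X cell higher in the Mus-only cell (a tied pair counts as 50% of a pair). The classes overlapped for all 12 genes. Ina, a neuronal intermediate filament gene named after its values were seen, had the largest log2 fold of all tested genes off chromosome 1, 4.73. It missed the condition on single cells because 1 cell held 34.8% of the Mus-only sum. It was read in 8 of 9 Mus-only and 4 of 23 two-X cells, and its log2 fold in Cast-only cells was 3.67.

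The lowest fold belonged to Rps4x-ps, a pseudogene at chr5:3875362-3876154 of the X-linked ribosomal protein gene Rps4x. Scaled counts of Rps4x-ps ran from 0 to 3.67 (median 0) in Mus-only cells and from 61.9 to 140.5 (median 89.8) in two-X cells, and every Mus-only cell lay below every two-X cell. Its value is uncertain as a level of an autosomal gene. All but 2 of its 2071 counts in two-X cells were Cast counts, as were all 1479 in Cast-only cells, while the X-linked Rps4x had 4765 Mus and 67 Cast counts in two-X cells and 2 Mus and 89 Cast counts in Cast-only cells. The Cast reads of this pair thus mostly carry the pseudogene name, and how the counting divided the reads of the near-identical copies was not tested.

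Calcoco2, an autophagy receptor at chr11:96099326-96111964, was also lower, with 5.80% of pairs higher in the Mus-only cell. For Calcoco2 the Mus-only cells held 0 to 18.4 (median 0) scaled counts and the two-X cells 0 to 163 (median 74.1), with a log2 fold of -4.28. Without B01, the highest Mus-only cell, the log2 fold was -5.41. In Cast-only cells it was -1.28. Apobec2, Ccdc152 and the DNA repair gene Xrcc2 had no count in any Mus-only cell. Taking 3 counts summed over the 9 cells as the floor, they were at least 26.5-fold, 23.6-fold and 21.8-fold lower, from 209, 183 and 168 counts in 13, 14 and 14 two-X cells. The non-coding RNA Platr26 had 2 counts in Mus-only and 186 in two-X cells, a ratio of 0.0279 per total (95% counting interval 0.00335 to 0.102). The SNARE gene Stx18 had 3 and 171, a ratio of 0.0455 (0.009297 to 0.135). Alg14, which acts in N-glycosylation, and the stress-inducible Zfand2a had log2 folds of -4.45 and -4.27. These rested on 5 counts in 2 cells and 11 counts in D01 alone. Without D01, Alg14 was at -5.69 with 2 counts left and Zfand2a had no count left in Mus-only cells. In all of these except Rps4x-ps and Calcoco2 the median two-X cell held fewer than 12 scaled counts. The remaining genes of the lowest 12, Dazl, Tex15 and Tuba3a, are germline genes and are described with that group.

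Genes were also ranked by the separation of the cells, under the same conditions. Rpl13a, a protein of the large ribosomal subunit at chr7:45125558-45128761, was higher in the Mus-only cell in 98.1% of pairs. Rpl13a had 104 to 252 (median 146) scaled counts in Mus-only cells and 58.4 to 119.6 (median 82.6) in two-X cells (log2 fold 0.88), and 8 of 9 Mus-only cells lay above all two-X cells. Apoe, the lipid-carrying apolipoprotein at chr7:19696109-19699188, was higher in 95.7% of pairs. Scaled counts of Apoe ran from 77.6 to 156 (median 109) in Mus-only cells and from 5.06 to 99.8 (median 34.7) in two-X cells (log2 fold 1.34). The calpain subunit Capns1 (92.3%, log2 fold 1.67), the purine salvage enzyme Aprt (91.8%, 0.91), the mitochondrial protein Chchd2 (91.3%, 0.56) and the lysosomal protein Litaf (89.4%, 1.55) followed. Ina, left out by the conditions, was higher in 92.03% of pairs. Rpl13a, Apoe and Capns1 lie on chromosome 7 and Aprt on chromosome 8, whose shares were also higher in Mus-only cells. Ewsr1, an RNA-binding protein, was on the other side. In Mus-only cells Ewsr1 measured 11.6 to 46.1 (median 27.7) scaled counts, against 20.9 to 110.0 (median 60.6) in two-X cells (log2 fold -0.996), and the lower level came from Cast counts (log2 fold -1.88) more than from Mus counts (-0.08). Smc1b, Tuba3a and Tbx3 were also on this side, and Tbx3 at 11.1% of pairs was tied with Serpinb6c, Pigp and Tcl1. Of all 3664 genes, 6 were higher in the Mus-only cell in at least 90% of pairs and 5 in at most 10%.

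Several transcription factors of naive pluripotency were lower in Mus-only cells. The general factors Pou5f1, Sox2 and Tdgf1 did not reach 1.5-fold, but Sox2, at a log2 fold of -0.54, was about as low as Zfp42 at -0.51. Of 17 tested members of the naive list off chromosome 1, 6 were at least 1.5-fold lower and 3 at least 1.5-fold higher (against 17.5% and 19.5% of all genes), with a median log2 fold of -0.51 against 0.06 over all genes. Of the lower members, Tbx3 and Klf4 had Mus-only means of 0.96 and 2.47 scaled counts and passed the limit through the two-X cells. The count and median thus carry no support for a lower level. Nanog, the homeobox factor at chr6:122707489-122714633 that stabilises naive pluripotency, lay below the two-X median in all 9 Mus-only cells. Nanog had 1.84 to 45.3 (median 18.5) scaled counts in Mus-only cells and 14.9 to 132 (median 47.5) in two-X cells, 2.397-fold lower in the mean, and 3 Mus-only cells lay below every two-X cell. Tbx3, a T-box factor of the LIF response at chr5:119670669-119684724, was read in 1 of 9 Mus-only cells and 20 of 23 two-X cells. Scaled counts of Tbx3 ran from 0 to 8.598 (median 0) in Mus-only cells and from 0 to 29.6 (median 8.88) in two-X cells (log2 fold -3.62, all from 11 counts in B05, without which no count was left).

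Klf4 and Klf5, Krüppel-like factors of the same network, were lower too. For Klf4 the Mus-only cells held 0 to 11.6 (median 0) scaled counts and the two-X cells 0 to 30.8 (median 8.22), with a log2 fold of -2.01, or -2.90 without E04. In Mus-only cells Klf5 measured 0 to 17.5 (median 6.89) scaled counts, against 2.32 to 37.6 (median 12.1) in two-X cells (log2 fold -1.13). Tcl1, a co-activator of AKT, was below the two-X median in all 9 cells. Tcl1 had 0 to 111 (median 25.5) scaled counts in Mus-only cells and 0 to 304 (median 117) in two-X cells (log2 fold -1.82). Pecam1 was the other member past 1.5-fold, at a log2 fold of -0.60. The zinc finger factor Zfp42 and the nuclear receptor Esrrb did not reach 1.5-fold. Scaled counts of Zfp42 ran from 24.97 to 365 (median 250.1) in Mus-only cells and from 0 to 478 (median 281) in two-X cells (log2 fold -0.51). For Esrrb the medians were 21.3 and 29.3 scaled counts, with a log2 fold of -0.17. The log2 fold was 0.35 for Pou5f1, -0.54 for Sox2 and -0.19 for Tdgf1. Reads of the lentiviral factors could enter the counts of Pou5f1, Sox2 and Klf4, and this was not tested. The members that were higher were Dppa3, Dppa4 and Stat3. For Dppa4 the Mus-only cells held 42.3 to 102 (median 71.7) scaled counts and the two-X cells 3.44 to 74.5 (median 38.3), with a log2 fold of 0.93, 86.96% of pairs higher. Dppa3, a maternal factor that protects methylation marks, had a log2 fold of 0.83, but -0.15 within plate rows E to H and 0.20 without B01, C01 and G04. Stat3 was at 0.87, or 0.46 without D02, with 0.24 within plate rows A to D and 1.62 within rows E to H.

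On chromosome 1, where the share itself differed, Tfcp2l1 and Prdm14 were lower. In Mus-only cells Tfcp2l1 measured 0 to 216 (median 71.9) scaled counts, against 56.5 to 449 (median 256) in two-X cells (log2 fold -1.40), and 4 Mus-only cells lay below every two-X cell. Without B01, C01 and G04 its log2 fold was -1.08. Prdm14, which represses DNA methyltransferases and FGF receptor signalling, had 0 to 18.4 (median 5.53) and 0 to 80.6 (median 15.4) scaled counts (log2 fold -1.90). Nr5a2 was close to even at 0.13. In Cast-only cells, set against the same two-X cells, the log2 folds were -1.14 for Nanog, -1.13 for Tbx3, -0.99 for Klf4, -1.34 for Tcl1, -0.29 for Tfcp2l1 and 0.58 for Esrrb.

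**Figure D3:**
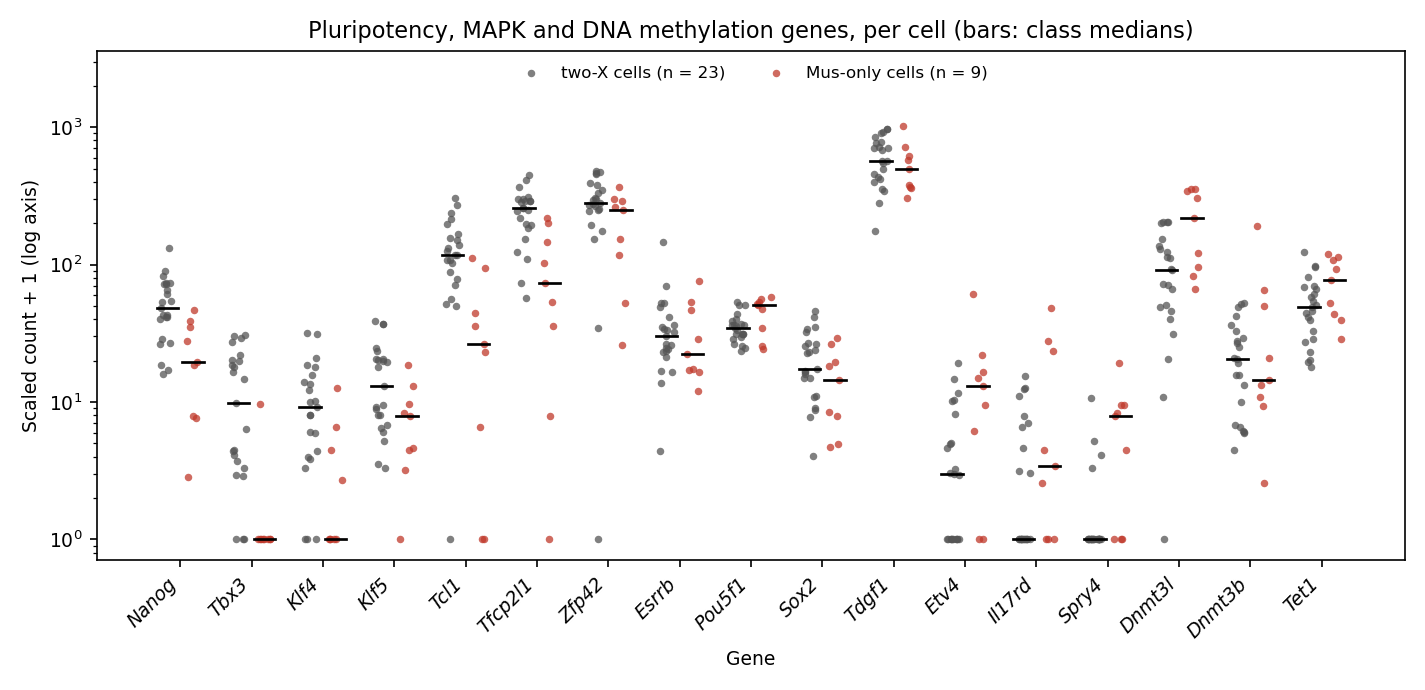
Scaled counts plus 1 (y axis, log) of naive and general pluripotency genes, MAPK genes and DNA methylation genes (x axis) in 23 two-X cells (grey) and 9 Mus-only cells (red), with bars at class medians. Mus-only cells lie low for Nanog, Tbx3, Tcl1 and Tfcp2l1 and high for Dnmt3l and Spry4, with overlap in every gene.

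Of 9 tested MAPK feedback and target genes, 4 were at least 1.5-fold higher in Mus-only cells and none was 1.5-fold lower. Over all genes the shares were 19.5% and 17.5%, and the median log2 fold of the 9 was 0.49. Etv4, Spred2 and Il17rd had two-X means of 3.84, 3.19 and 3.21 scaled counts and passed the limit through the Mus-only cells. The count and median thus carry no support for a higher level. Etv4, an ETS factor induced by FGF signalling, was read in 7 of 9 Mus-only cells. Etv4 had 0 to 60.2 (median 11.98) scaled counts in Mus-only cells and 0 to 18.4 (median 1.98) in two-X cells (log2 fold 1.98, or 1.32 without E04, whose value was the highest). The ERK inhibitors Spred2 and Il17rd and the AP-1 factor Junb had log2 folds of 1.95, 1.85 and 1.01. The Spred2 value was 0.71 without D02, which held 62.4% of its Mus-only sum, and that of Il17rd was 1.14. Within plate rows E to H the Junb value was -0.31. Etv5, Dusp1 and Ccnd1 had log2 folds of -0.20, -0.15 and 0.18. The feedback genes Spry4 and Dusp6 were below the count limit. Spry4 had 50 counts in 6 Mus-only cells and 19 in 4 two-X cells (log2 fold 2.81), and Dusp6 had 8 in 3 and 18 in 3, too few for a fold. In Cast-only cells the log2 folds of Etv4, Spred2, Il17rd and Junb were -0.58, -0.01, 2.17 and 0.97.

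Of 7 tested genes that write or erase DNA methylation, 2 were at least 1.5-fold higher and none was 1.5-fold lower (against 19.5% and 17.5% of all genes), with a median log2 fold of 0.42, or 0.13 without B01, C01 and G04. Dnmt3l at chr10:78041947-78063622, the cofactor of the de novo methyltransferases, was 2.24-fold higher. Scaled counts of Dnmt3l ran from 65.9 to 353 (median 218) in Mus-only cells and from 0 to 205 (median 90.5) in two-X cells, and 5 Mus-only cells lay above all two-X cells. Dnmt3b, a de novo methyltransferase, had a log2 fold of 0.91 that rested on C01. For Dnmt3b the Mus-only cells held 1.56 to 190.5 (median 13.4) scaled counts and the two-X cells 3.48 to 51.9 (median 19.5), and without C01 the log2 fold was 0.03. Dnmt3a had 2 counts in Mus-only and 0 in two-X cells. Tet1, which oxidises methylcytosine, had 27.8 to 118 (median 76.8) and 16.9 to 122 (median 48.2) scaled counts (log2 fold 0.51), Tet2 a log2 fold of 0.27 and Uhrf1, which guides maintenance methylation, 0.26. For Dnmt3l the Cast-only log2 fold was 0.36.

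Among 6 tested formative and primed genes, 3 were at least 1.5-fold higher and 2 lower, against 19.5% and 17.5% of all genes. The median log2 fold of 0.87 became -0.30 when genes with a mean of at least 1 count were admitted. Cldn6, a tight junction protein, was read in 8 of 9 Mus-only and 5 of 23 two-X cells (log2 fold 2.94). Its two-X mean was 3.90 scaled counts, so it passed the limit through the Mus-only cells and adds no support to the count. In Mus-only cells Lef1 measured 0 to 42.3 (median 10.98) scaled counts, against 0 to 30.9 (median 0) in two-X cells (log2 fold 1.38), and Lef1 is a nuclear effector of WNT signalling. Grhl2 was at 1.33, or 0.55 without B01. Tcf7l1, a WNT-linked repressor of the naive network, and the TGF-beta ligand Nodal were lower, with log2 folds of -1.27 and -1.09, and Nodal was at -1.84 without D01. Only Lef1 and Ccnd1 of 14 WNT targets were tested (median 0.78).

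Several germline genes were lower in Mus-only cells. The group was made after their values had been seen, so its count is a description of these cells only. Of 36 genes of meiosis and germ cell development, 30 were in the counts and 14 were tested. None was 1.5-fold higher, 12 were at least 1.5-fold lower (against 17.5% of all genes) and the median log2 fold was -2.46. Of the 12, Dazl, Fkbp6, Sycp1, Syce1, Tex15 and Smc1b had a Mus-only mean below 5 scaled counts and passed the limit through the two-X cells, so the count and median carry no support for a lower level. Of the 16 members under the limit, 11 had a lower mean in Mus-only cells, 6 of them with no Mus-only count. The other 5, Sycp3, Zcwpw1, Tex101, Tdrd5 and Dpep3, had a higher one, on 20, 36, 22, 8 and 4 counts over the 9 cells. Since methylation of CG sites silences many germline promoters, the RefSeq promoters of 3 germline genes are shown on build GRCm38.p6, from 250 bases before to 50 bases after the start, with CG dinucleotides in capitals.
Dazl (chr17:50293571-50293870, minus strand): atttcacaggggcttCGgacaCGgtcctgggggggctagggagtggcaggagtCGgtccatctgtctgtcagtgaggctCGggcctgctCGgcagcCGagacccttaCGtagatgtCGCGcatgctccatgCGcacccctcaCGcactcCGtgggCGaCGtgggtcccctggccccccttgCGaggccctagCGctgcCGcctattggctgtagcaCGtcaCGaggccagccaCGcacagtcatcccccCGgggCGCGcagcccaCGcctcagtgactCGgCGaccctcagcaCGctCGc
Sohlh2 (chr3:55181794-55182093, plus strand): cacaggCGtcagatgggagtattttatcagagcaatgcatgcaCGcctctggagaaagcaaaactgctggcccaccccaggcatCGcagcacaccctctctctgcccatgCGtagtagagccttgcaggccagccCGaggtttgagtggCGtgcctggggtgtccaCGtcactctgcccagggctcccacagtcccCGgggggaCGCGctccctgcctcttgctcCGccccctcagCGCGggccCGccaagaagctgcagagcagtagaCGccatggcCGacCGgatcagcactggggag
Smc1b (chr15:85131908-85132207, minus strand): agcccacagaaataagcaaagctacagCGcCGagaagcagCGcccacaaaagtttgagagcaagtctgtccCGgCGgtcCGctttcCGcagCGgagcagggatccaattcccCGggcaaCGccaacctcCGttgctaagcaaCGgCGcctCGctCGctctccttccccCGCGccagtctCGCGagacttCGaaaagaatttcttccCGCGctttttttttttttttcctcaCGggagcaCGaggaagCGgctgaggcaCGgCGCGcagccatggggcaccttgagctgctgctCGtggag
These windows held 28, 17 and 29 CG dinucleotides, against a median of 7 over 32851 RefSeq promoters of the same length, and lay at percentiles 85.8, 68.6 and 87.1 of these. They are examples and do not stand for the other tested germline genes. CACGTG, the E-box, is in 7.15% of those promoters and in none of the 3. TCCCGC, the core of E2F sites searched on both strands, is in 20.0% and in that of Smc1b. These are matches of letters only.

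Dazl, an RNA-binding protein of germ cells at chr17:50279395-50293636, was read in 3 of 9 Mus-only and 17 of 23 two-X cells. Dazl had 0 to 18.9 (median 0) scaled counts in Mus-only cells and 0 to 256 (median 32.2) in two-X cells (log2 fold -4.37, or -5.83 without D01). Sohlh2, a germ cell transcription factor, was in every two-X cell. Scaled counts of Sohlh2 ran from 0 to 26.7 (median 0) in Mus-only cells and from 2.98 to 179 (median 31.1) in two-X cells (log2 fold -2.89, or -3.74 without G02), and 6 Mus-only cells lay below all two-X cells. For the meiotic cohesin gene Smc1b only 7.49% of pairs were higher in the Mus-only cell. For Smc1b the Mus-only cells held 0 to 3.700 (median 0) scaled counts and the two-X cells 0 to 32.5 (median 9.02), with a log2 fold of -2.76. Tuba3a, a testis alpha-tubulin, was 13.2-fold lower. In Mus-only cells Tuba3a measured 0 to 37.97 (median 3.700) scaled counts, against 0 to 838 (median 105) in two-X cells. Its near-identical copy Tuba3b had a log2 fold of -1.82, or -2.48 without D02, and reads may be divided between the copies, so the pair is best read as 1 signal. Within plate rows A to D the log2 fold of Tuba3a was -2.82, and the 3 Mus-only cells of rows E to H held 2 counts.

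The synaptonemal complex genes Sycp1 and Syce1 had log2 folds of -2.92 and -2.55, Tex15, which acts in meiosis and transposon silencing, -3.79, the co-chaperone Fkbp6 -2.36, Hormad2 -1.38 and Hormad1, both chromosome axis proteins, -0.76. Of these, Sycp1 and Fkbp6 were read in a single Mus-only cell each (B05 and E01), and Tex15 had 5 counts in 2 cells. Without G02, Tex15 was at -4.86 and Syce1 at -5.05, and Hormad2 was at -2.58 without D02. Rpl10l, the testis copy of an X-linked ribosomal protein gene, had enough reads for a firmer value. Rpl10l had 8.61 to 127 (median 57.9) scaled counts in Mus-only cells and 45.7 to 292 (median 135) in two-X cells (log2 fold -1.21), and 4 Mus-only cells lay below all two-X cells. Hsf2bp and the recombinase Dmc1 were close to even, at -0.08 and -0.05. In Cast-only cells the values were -2.10 for Dazl, -1.67 for Sohlh2, -0.57 for Smc1b, -0.80 for Tuba3a and -1.29 for Rpl10l. Both alleles of Dazl were low in Mus-only cells, with 26 Cast and 5 Mus counts against 635 and 860.

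**Figure D4:**
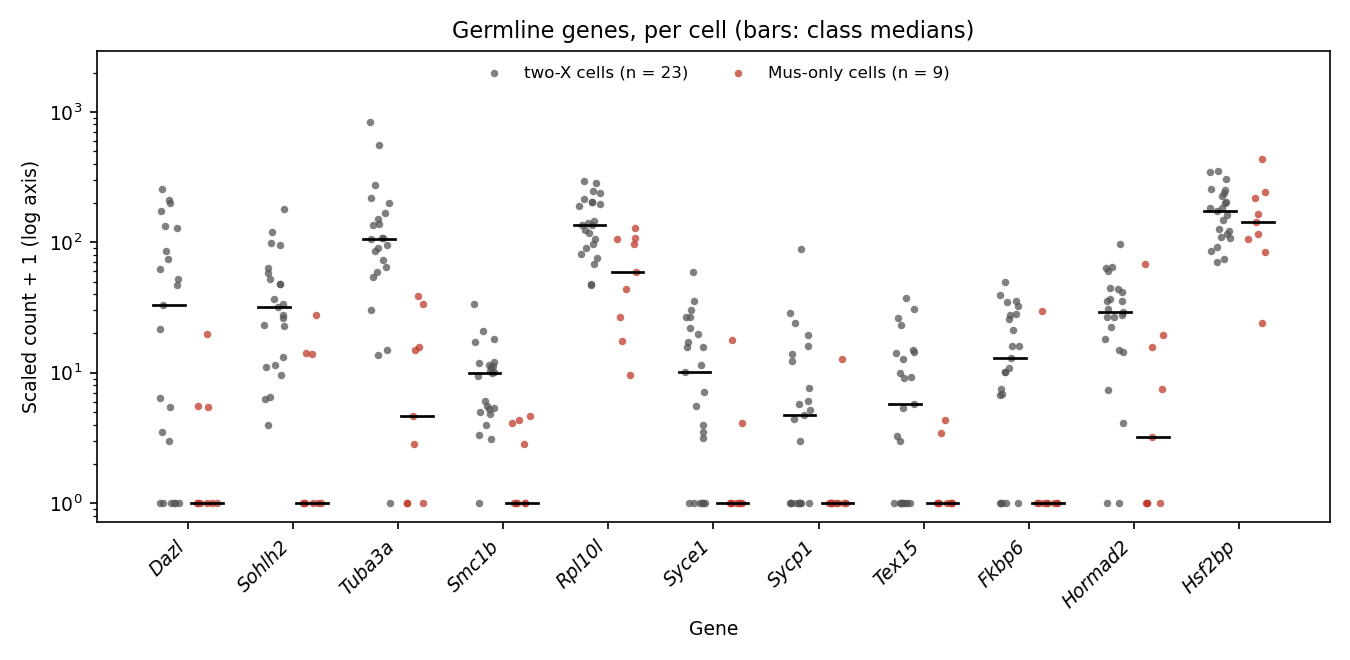
Scaled counts plus 1 (y axis, log) of 11 germline genes (x axis) in 23 two-X cells (grey) and 9 Mus-only cells (red), with bars at class medians. Most Mus-only cells have no count of Dazl, Syce1, Sycp1, Tex15 or Fkbp6, while for Hsf2bp 7 of 9 Mus-only cells lie within the two-X range.

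Of 10 tested imprinted genes 2 were at least 1.5-fold higher and 4 lower, against 19.5% and 17.5% of all genes, with a median log2 fold of -0.15. Peg3, a zinc finger protein expressed from the father's allele, was higher. Scaled counts of Peg3 ran from 0 to 114 (median 31.4) in Mus-only cells and from 0 to 66.9 (median 3.84) in two-X cells (log2 fold 1.94). Cast is the paternal strain, and all 391 Peg3 counts of Mus-only cells were Cast counts. In two-X cells 28 of 248 (11.3%, Clopper-Pearson interval 7.63% to 15.9%) were Mus counts, all in 2 cells. Likewise 0 of 165 Snrpn counts and 0 of 57 Impact counts were from Mus in Mus-only cells, which by a floor of 3 counts allows shares of up to 1.82% and 5.26% (Clopper-Pearson upper bounds 2.21% and 6.27%), against 9.52% in 3 two-X cells and 8.19% in 7 two-X cells. For Peg3 the floor allows 0.767% and the Clopper-Pearson bound is 0.939%. These bounds treat counts as independent, while the Mus counts lay in few cells. By cells with a read, they were in 2 of 16 two-X cells for Peg3, 3 of 22 for Snrpn and 7 of 18 for Impact. The Mus-only cells with a read numbered 8, 9 and 8. Whether the classes differ in these shares was not tested. Tssc4 had 20.3% Mus counts (13.6% to 28.5%) in Mus-only and 53.8% (48.1% to 59.5%) in two-X cells, and Nap1l4 61.1% and 44.1%. Cd81 (52.97% and 55.99%) and Ddc (36.9% and 31.5%) were closer. Grb10, a growth factor receptor adaptor, had the highest fold of the list at 2.81, or 1.95 without C01, with 70.3% Mus counts in Mus-only and 81.3% in two-X cells. Plagl1, a zinc finger regulator of growth, was read in 1 of 9 cells (G02) and 10 of 23 (log2 fold -2.95). Its counts were mostly from Mus, 8 of 8 in Mus-only and 149 of 190 (78.4%) in two-X cells, and 45.1% and 37.7% of the Slc38a4 counts were from Mus. Impact, Ddc and Slc38a4 had log2 folds of -1.66, -1.43 and -0.59.

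Counts of the metabolic and housekeeping lists are read against 19.5% of all genes higher and 17.5% lower at 1.5-fold, and most lay near or below these shares. In cholesterol synthesis 6 of 12 tested members were at least 1.5-fold higher and 1 lower, with a median log2 fold of 0.56, but the median was 1.16 within plate rows A to D and -0.48 within rows E to H. Lss, which acts at the cyclisation step, had a log2 fold of 1.53, Fdft1 was at 0.68 and the sterol transporter Stard4 at -0.77. The Stard4 value was -1.42 without C01 and -1.56 without D01. On chromosome 1, Hsd17b7 was at -1.78, or -2.88 without D02. In glycolysis 3 of 16 were higher and 4 lower (median -0.09). The glucose transporters Slc2a1 and Slc2a3 were lower at -1.49 and -1.04, as were Gpi1 (-0.77) and Pgam1 (-0.69). For Pdk1 the Mus-only cells held 0 to 244 (median 88.8) scaled counts and the two-X cells 0 to 154 (median 29.2), with a log2 fold of 1.42, and Pdk1 restrains pyruvate entry into mitochondria. Ldhb and Aldoc were at 1.22 and 1.89.

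Of 47 tested nuclear genes of oxidative phosphorylation, 2 were at least 1.5-fold higher and 1 lower, with a median of 0.14, or -0.11 without E04, and named members ran from Sdhd at -0.73 to Cox6b2 at 0.68, with Atp5e at 0.61 and Ndufs6 at 0.57. Cytosolic ribosomal proteins had a median of 0.24, with 6 of 55 higher and 5 lower. The lower members included the tissue-specific copies Rpl39l (-1.29, or -2.35 without B05) and Rpl10l, besides Rpl11 (-1.11), Rpl27a (-0.99) and Rps23 (-0.98), and many pseudogene copies make single ribosomal protein genes uncertain. Proteasome subunits had a median of 0.02, with 1 of 28 higher and 2 lower, the immunoproteasome subunit Psmb10 at 1.28 being the former and Psmd3 at -0.71 and the testis subunit Psma8 at -0.69 the latter, and Psmd14 and Psmd5 at 0.52 and 0.51. Chaperones had a median of -0.12, with 1 of 16 higher (Dnajb1, 0.69) and 1 lower (Cct8, -0.65), and with Sqstm1 at 0.46 and Hspb1 at -0.44. In the amino acid stress response 4 of 22 were higher and 2 lower (median 0.13). All list counts of this paragraph stand beside 19.5% of all genes higher and 17.5% lower. The tRNA exporter Xpot, the serine synthesis enzyme Psph, Sesn2 and the amino acid transporter Slc7a5 had log2 folds of 0.97, 0.92, 0.94 and 0.66. The neutral amino acid transporter Slc1a4 and the mTORC1 inhibitor Ddit4 were lower, at -2.70 and -0.83, and Slc1a4 was at -3.59 without C06 and -3.48 without D02.

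The shares of all genes past 1.5-fold, 19.5% higher and 17.5% lower, also stand beside the cell cycle, p53 and Polycomb counts. Of 18 G2 and mitosis genes 2 were at least 1.5-fold higher and 2 lower (median 0.11), and of 17 S-phase genes 1 was higher and none lower (median 0.17). Cdk1, the mitotic kinase, was an exception within its list. The median was 55.5 scaled counts in Mus-only and 141 in two-X cells, with highest cells at 153 and 244, 2.11-fold lower in the mean, and 16.4% of pairs were higher in the Mus-only cell. The log2 folds of Kif11, Anln, Bub1b and Aurkb were 0.84, 0.72, -0.73 and 0.48. The G1/S cyclin Ccne1 was higher at 0.84, and Slbp, Pcna and Gins2 were at 0.44, 0.42 and 0.42. Among p53 targets none of 12 was 1.5-fold higher and 1 was lower (median -0.07). That gene was Pmaip1, which encodes the pro-apoptotic protein Noxa. Pmaip1 had 0 to 10.98 (median 0) scaled counts in Mus-only cells and 0 to 83.6 (median 11.3) in two-X cells (log2 fold -3.08, or -3.68 without D02). Aen, Trp53inp1 and, on chromosome 1, Phlda3 were at 0.58, -0.51 and -0.68. Polycomb genes had a median of 0.18, with 3 of 10 higher and 1 lower, and the median was -0.27 without B01. Phf19 was at 1.42, Cbx7 at 0.68, Phc1 at 0.65, Pcgf6 at -0.58 and Epop at -0.66. None of the 18 genes of the two-cell-like list was in the counts.

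Markers of other cell types were mostly unread. Of 9 autosomal primitive endoderm genes in the counts, Gata6, Gata4, Pdgfra, Sox7, Col4a1 and Col4a2 were at 0 in all Mus-only cells. The summed level of the list ran from 9.48 to 343 scaled counts in Mus-only and from 3.78 to 243 in two-X cells. The basement membrane laminins Lama1 and Lamb1 were higher. For Lama1 the Mus-only cells held 0 to 167 (median 5.53) scaled counts and the two-X cells 0 to 54.3 (median 0), with a log2 fold of 2.15, or 1.498 without B01. In Mus-only cells Lamb1 measured 0 to 79.6 (median 18.4) scaled counts, against 0 to 39.5 (median 0) in two-X cells (log2 fold 2.25). The Cast-only log2 folds were 1.63 for Lama1 and 1.55 for Lamb1. Sparc was even at 0.16, so 2 of 3 tested members were at least 1.5-fold higher (median 2.15), against 19.5% of all genes. Of 14 fibroblast genes 9 were at 0 in Mus-only cells, Vim was at -0.40, or -1.04 without C01, and, on chromosome 1, Fn1 at 0.14. The only tested trophoblast gene, Tfap2c, had a log2 fold of 0.01, or -1.003 without B05.

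**Figure D5:**
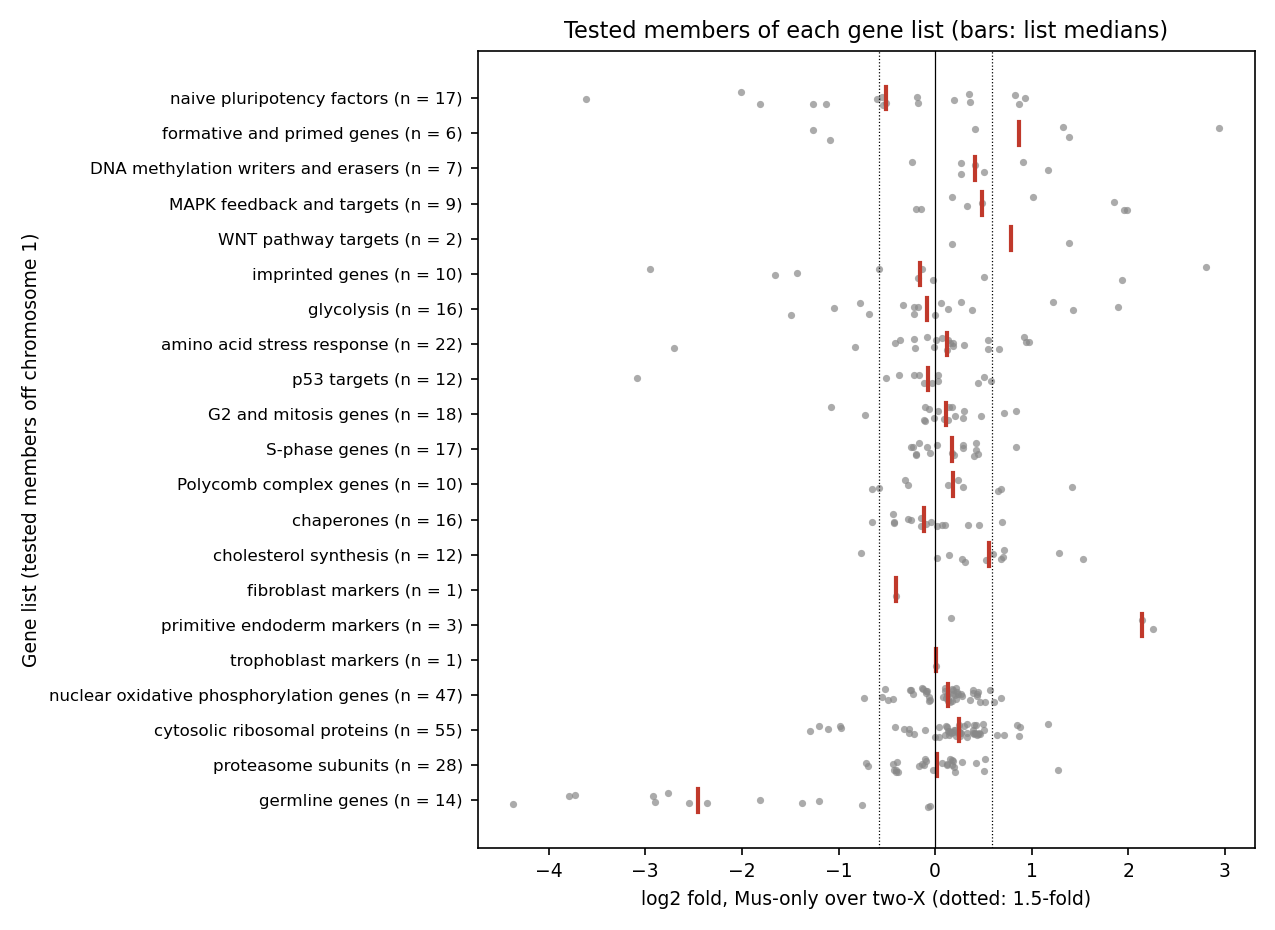
Log2 fold of Mus-only over two-X cells (x axis) of each tested gene off chromosome 1 (grey) by gene list (y axis, with the number tested), with list medians as red bars and dotted lines at 1.5-fold. Medians run from -2.46 for germline genes to 2.15 for 3 primitive endoderm genes.

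On chromosome 1 the highest folds belonged to Apoa2, 3110045C21Rik, Brox and Pea15a. Scaled counts of Apoa2 ran from 12.1 to 194 (median 67.2) in Mus-only cells and from 0 to 58.7 (median 15.97) in two-X cells (log2 fold 2.18), with Cast counts only in all classes, and Apoa2 encodes an apolipoprotein of HDL. The Cast-only log2 fold of Apoa2 was 1.94. The other 3 were at 1.99, 1.69 and 1.48, and 3110045C21Rik was at -0.78 within plate rows E to H. Among the lowest were the kinase Cdk18, the syntrophin Sntg1 and the ciliary GTPase Rab23. Cdk18 had 4 counts in 2 Mus-only cells and 174 in 13 two-X cells (log2 fold -4.37, or -5.33 without E01 and -5.09 without B05). For Sntg1 the Mus-only cells held 0 to 5.55 (median 0) scaled counts and the two-X cells 0 to 81.2 (median 11.6), with a log2 fold of -3.32. Rab23 was at -2.99, or -4.48 without D01. Without B01, C01 and G04 the 3 values were -4.08, -3.02 and -2.69.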

How the data were processed

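Single iPSCs were sorted into a GpC methylase mix, their mRNA was separated and amplified as in G&T-seq, and libraries (Nextera XT) were read as single 50 base reads. The authors deposited allelic counts per gene for 47 cells, in 94 columns, unnormalized, for genes that per their methods had at least 4 SNPs. The processing notes name STAR 2.5.3a, SAMtools and mm10. The class of each cell comes from the column names. Whole-number counts of both alleles were summed and scaled with Python 3.11.15, numpy 2.4.6, pandas 2.3.3 and scipy 1.17.1, and plotted with matplotlib 3.10.9. Genes were placed on GRCm38 by symbol, 13945 by GENCODE M21 and 1 by RefSeq, and 1 was not placed.

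Log2 folds compare class means. With 1 sample per class no test was run, and the scripts were tested on simulated data. The classes, gene lists and rules were chosen with earlier results of these data known. Named genes, drawn from those with a read in at least 50% of the cells of the higher class and no cell over 33.3% of its sum, are the 12 highest and lowest folds off chromosome 1, 4 each on it, 6 each by pairs, up to 4 per list, and fixed pluripotency, methylation and MAPK genes, of which some are not reported here. Other list members, the germline list, Ina and the alternative without B01, C01 and G04 were chosen after values were seen. Alternatives changed the cells, the scaling, the count limit, the summary over cells, the depth and the allele.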

Additional observations from a re-analysis of the deposited data

Results flagged for a closer look

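Levels and list sums were examined as log2 of the scaled count plus 1, and shares and totals as they are. Among 185 values examined over the 9 Mus-only cells, 24 had a cell whose gap to its nearest neighbour, as a share of the range, exceeded Dixon's 95% limit for 9 values, and chance alone passes that limit in about 1 of 20 groups of normally distributed values. Many of these are counts with cells at 0, for which the chance rate was not tested. Two-X cells, 23 in number, were not examined in this way. For chromosomes, C01 stood above the others in its share of counts on chromosome 8 (ratio 0.563), and B01 stood below them in its mitochondrial share (0.514). For summed lists, E04 was lowest for imprinted genes (0.521) and highest for oxidative phosphorylation genes (0.634), and C01 was lowest for primitive endoderm markers (0.576), as it was for Sparc (0.692).

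In 7 genes the ratio was 1.000, since 8 of 9 cells were at 0. The reads lay in B05 for Platr26, Stx18, Tbx3 and Sycp1, in D01 for Zfand2a, in G02 for Plagl1 and in E01 for Fkbp6. Syce1, read in 2 cells, stood highest in G02 (0.507). On this log scale the lowest cell was at 0 and apart from the rest for Trh (0.575) and Pea15a (0.501) in B05, Pdlim1 (0.714) and Junb (0.521) in E04, Aen (0.564) in B01, Aurkb (0.615) in D01, Gins2 (0.546) in G02 and Rpl11 (0.773) in C06. Utf1 was low in B01 (0.632), and Fdft1 was high in D02 (0.502).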

How the results depend on the processing

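No paired analysis was possible because the labels give the classes no shared replicate numbers and no test was run. Of 110 named genes at least 1.5-fold apart, 100 kept their sign in every setting that gave a value, at most 20 each, and of the other 35 named genes 22 changed sign in at least 1. Many named genes were picked for their large folds in these same cells, so a kept sign is partly fixed by the choice. The rate over all tested genes was not taken. Of 21 list medians 14 changed sign in at least 1 of up to 22 settings. With each Mus-only cell left out in turn, 298 to 359 genes were at least 2-fold higher and 307 to 381 lower, 658 to 773 and 607 to 713 at 1.5-fold, and the chromosome 1 median ran from -0.19 to -0.13. The near balance of genes 2-fold higher and lower was lost by medians over cells (458 and 703), with the highest cell of each gene left out (223 and 583) and within plate rows E to H (427 and 890). Division by the autosomal total without chromosome 1 gave 270 and 379 (590 and 760 at 1.5-fold), and leaving out B01, C01 and G04 gave 306 and 416 (617 and 762). Genes 2-fold and 1.5-fold lower numbered 703 and 1003 by medians over cells, 583 and 1034 with the highest cell of each gene left out (chromosome 1 median -0.41), and 890 and 1275 within plate rows E to H, which hold 3 Mus-only cells. Cast counts alone gave 493 genes 2-fold lower, Mus counts alone 537, and plate rows A to D 510 genes 2-fold higher. Admitting genes with a mean of at least 1 count gave 1168 higher and 1283 lower at 2-fold, and 1888 of each at 1.5-fold. A mean of at least 20 gave 40 and 42, and 157 and 127.

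Among values at least 1.5-fold apart, those that changed sign were Dnmt3b by medians over cells (-0.54), the formative list with a mean of at least 1 count (-0.30), Psma8 by Cast counts (0.20), and, by Mus counts, Bub1b (0.80), Hsd17b7 (1.12) and Rpl11 (0.97). Peg3 had no Mus count in Mus-only cells, so its -1.89 by Mus counts is set by the floor of 3 counts. Stard4 was at 0.004 in plate rows A to D, and 3110045C21Rik (-0.78), Junb (-0.31) and Dppa3 (-0.15) changed sign in rows E to H. The cause was not tested. The medians of the naive, germline, MAPK, DNA methylation, ribosomal protein, WNT and primitive endoderm lists kept their sign in all 22. Of these, the WNT and primitive endoderm lists had only 2 and 3 tested members. The germline list was made after its values were seen. Members of the germline, naive and MAPK lists passed the count limit through the class where they were high, so a kept sign is no support there. Folds past 2 were most frequent among genes with a mean below 10 counts, and the part of depth in this was not settled by thinning, which gave 337 and 346.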
